A study of Mus musculus with 8 samples.

Results

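The dispersed homeobox genes taken here are the mouse protein-coding genes whose symbol has the form of Dlx1, Lhx1, Six2, Irx1, Pitx1, Otx1, Emx1, Msx1, Gbx1, Meis1 or Barx1 with any number, or of Nkx2-1 with any pair of numbers. There were 57 of them among 21900 protein-coding genes. Antibody to H2A.Z was used for ChIP-seq (sequencing of immunoprecipitated chromatin) on testis cells freed with collagenase and trypsin at postnatal day 14, from Znhit1-CKO animals (a conditional knockout, called Znhit1-sKO in the labels' protocol) and from animals labelled Control. Each genotype had 2 independent H2A.Z immunoprecipitates and 2 inputs, 8 libraries in all, and the deposited data hold 1 list of peaks per genotype and 1 list of differential regions between them. No source used here gives the Cre driver, the strain or the alleles of the control animals. Testis at this age holds spermatogonia, early spermatocytes, Sertoli cells and interstitial cells, so fewer cells of a type and less H2A.Z per cell cannot be told apart.

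Homeobox genes encode transcription factors that bind DNA through a homeodomain. Those treated here lie singly or in small groups outside the Hox clusters and pattern the brain, eye, heart, limbs, gut and urogenital system. In embryonic stem cells most such developmental genes have CpG-rich promoters held silent by Polycomb complexes, and H2A.Z is known to be present there. ZNHIT1 is a subunit of the SRCAP complex, which exchanges H2A for H2A.Z in nucleosomes. The series asks how ZNHIT1 affects where H2A.Z lies in germ cells.

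Promoters of 6 genes show the range of outcomes: among members with a listed promoter, Lhx1 and Nkx6-2 had the widest control peaks of those with no Znhit1-CKO peak at either gene end, Meis1 and Nkx6-1 the widest of those that still had one, and Six3 and Lhx4 had no peak at a gene end in either genotype. Each sequence is the RefSeq promoter of build GRCm38.p6 (the primary coordinates of mm10), from 250 bases before to 50 after the listed start of transcription, read 5′ to 3′, with each CG dinucleotide in capitals.
Lhx1: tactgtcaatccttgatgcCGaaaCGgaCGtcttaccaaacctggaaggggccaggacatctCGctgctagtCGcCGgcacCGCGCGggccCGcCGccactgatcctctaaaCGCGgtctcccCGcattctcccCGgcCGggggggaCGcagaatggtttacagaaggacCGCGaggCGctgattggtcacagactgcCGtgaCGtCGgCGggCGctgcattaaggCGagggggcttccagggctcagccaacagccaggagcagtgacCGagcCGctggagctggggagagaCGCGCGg
Nkx6-2: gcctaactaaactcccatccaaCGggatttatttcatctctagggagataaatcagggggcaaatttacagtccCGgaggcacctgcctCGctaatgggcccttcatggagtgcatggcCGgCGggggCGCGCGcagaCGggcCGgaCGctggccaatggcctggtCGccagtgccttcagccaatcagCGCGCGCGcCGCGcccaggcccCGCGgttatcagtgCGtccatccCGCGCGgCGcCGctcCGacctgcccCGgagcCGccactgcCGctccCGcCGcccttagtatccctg
Meis1: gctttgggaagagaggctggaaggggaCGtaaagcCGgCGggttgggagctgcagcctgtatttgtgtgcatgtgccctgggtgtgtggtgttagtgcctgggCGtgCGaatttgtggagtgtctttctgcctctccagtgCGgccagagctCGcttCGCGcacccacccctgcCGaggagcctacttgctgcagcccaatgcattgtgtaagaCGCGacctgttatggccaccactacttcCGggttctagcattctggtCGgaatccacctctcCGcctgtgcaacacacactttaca
Nkx6-1: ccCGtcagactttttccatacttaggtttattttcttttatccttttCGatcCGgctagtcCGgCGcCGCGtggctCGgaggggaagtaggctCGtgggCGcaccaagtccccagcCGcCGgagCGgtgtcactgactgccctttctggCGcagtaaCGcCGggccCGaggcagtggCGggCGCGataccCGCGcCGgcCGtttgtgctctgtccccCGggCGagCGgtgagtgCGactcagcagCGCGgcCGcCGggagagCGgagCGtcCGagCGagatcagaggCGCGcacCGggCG
Six3: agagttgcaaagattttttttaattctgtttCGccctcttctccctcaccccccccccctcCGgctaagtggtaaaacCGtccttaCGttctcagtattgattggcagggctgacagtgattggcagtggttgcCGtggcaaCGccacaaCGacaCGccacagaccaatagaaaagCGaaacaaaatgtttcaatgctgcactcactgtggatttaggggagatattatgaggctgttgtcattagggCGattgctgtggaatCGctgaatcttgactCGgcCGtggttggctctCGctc
Lhx4: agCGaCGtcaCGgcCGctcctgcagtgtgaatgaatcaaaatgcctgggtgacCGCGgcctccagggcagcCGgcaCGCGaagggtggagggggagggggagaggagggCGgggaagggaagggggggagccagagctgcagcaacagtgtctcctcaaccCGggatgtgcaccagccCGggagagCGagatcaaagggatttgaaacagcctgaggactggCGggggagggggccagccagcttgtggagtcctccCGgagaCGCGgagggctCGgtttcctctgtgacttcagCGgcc

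The Lhx1 promoter (chr11:84525485-84525784, minus strand, 31 CG) lay wholly inside a control peak of 1945 bp and wholly inside a differential region (chr11:84525446-84525845), and no Znhit1-CKO peak overlapped it. At Nkx6-2 (chr7:139582748-139583047, minus strand, 32 CG), the 112 bases at the 3′ end of the sequence lay in a control peak of 1661 bp, a differential region covered 71 of them, and no Znhit1-CKO peak reached it. At Nkx6-1 (chr5:101664662-101664961, minus strand, 40 CG), a Znhit1-CKO peak of only 357 bp (chr5:101664614-101664970) held the whole promoter, against a control peak of 2834 bp, and a differential region covered 211 of its bases. The Meis1 promoter (chr11:19018920-19019219, minus strand, 15 CG) lay wholly in peaks of both genotypes, 2901 bp wide in Znhit1-CKO and 3167 bp in control. The Lhx4 promoter (chr1:155741978-155742277, minus strand, 19 CG) was likewise inside a Znhit1-CKO peak of 1898 bp and a control peak of 3029 bp, both too far from the ends of the annotated gene to count there. No peak of either list touched the Six3 promoter (chr17:85620584-85620883, plus strand, 14 CG).

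In Znhit1-CKO testes, dispersed homeobox genes had lost H2A.Z peaks at their ends or held narrower ones at larger shares than protein-coding genes at large, and in control testes a larger share of them carried such peaks. A boundary peak is a peak within 1 kb of either end of the annotated gene. In Znhit1-CKO testes, 35 of the 57 genes had a boundary peak (61.4%, against 60.4% of all protein-coding genes). In control testes, 54 of the 57 had one (94.7%, exact 95% interval 85.4 to 98.9%, against 67.6% of all protein-coding genes). At 19 of those 54 the boundary peak was lost, meaning that no Znhit1-CKO peak lay within 1 kb of either end. That is 35.2% (22.7 to 49.4%), against 11.5% among all 14815 genes that had a peak in control. The widest control boundary peak had no Znhit1-CKO peak over it at 20 of the 54 (37.0%, against 11.7% of the 14815). The other 35 kept a boundary peak, Lhx3, Lhx4 and Six3 had none in either list, and no member had a Znhit1-CKO boundary peak alone, against 1.74% of all genes without a control boundary peak.

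Counted peak by peak, member boundaries held 43 Znhit1-CKO peaks and 90 control peaks. Of the 90 control peaks, 42 had a Znhit1-CKO peak over them and 48 had none (46.7% covered, against 82.0% of all control boundary peaks). All 43 Znhit1-CKO peaks overlapped a control peak (100%, against 97.7% of all Znhit1-CKO boundary peaks). Intervals cover counting error only, and genes are not independent of each other. With 1 list per genotype the spread between the 2 replicates of a group is unknown, and no test against it was possible. A list says where signal passed the peak caller's threshold, so width is not height.

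**Figure D1:**
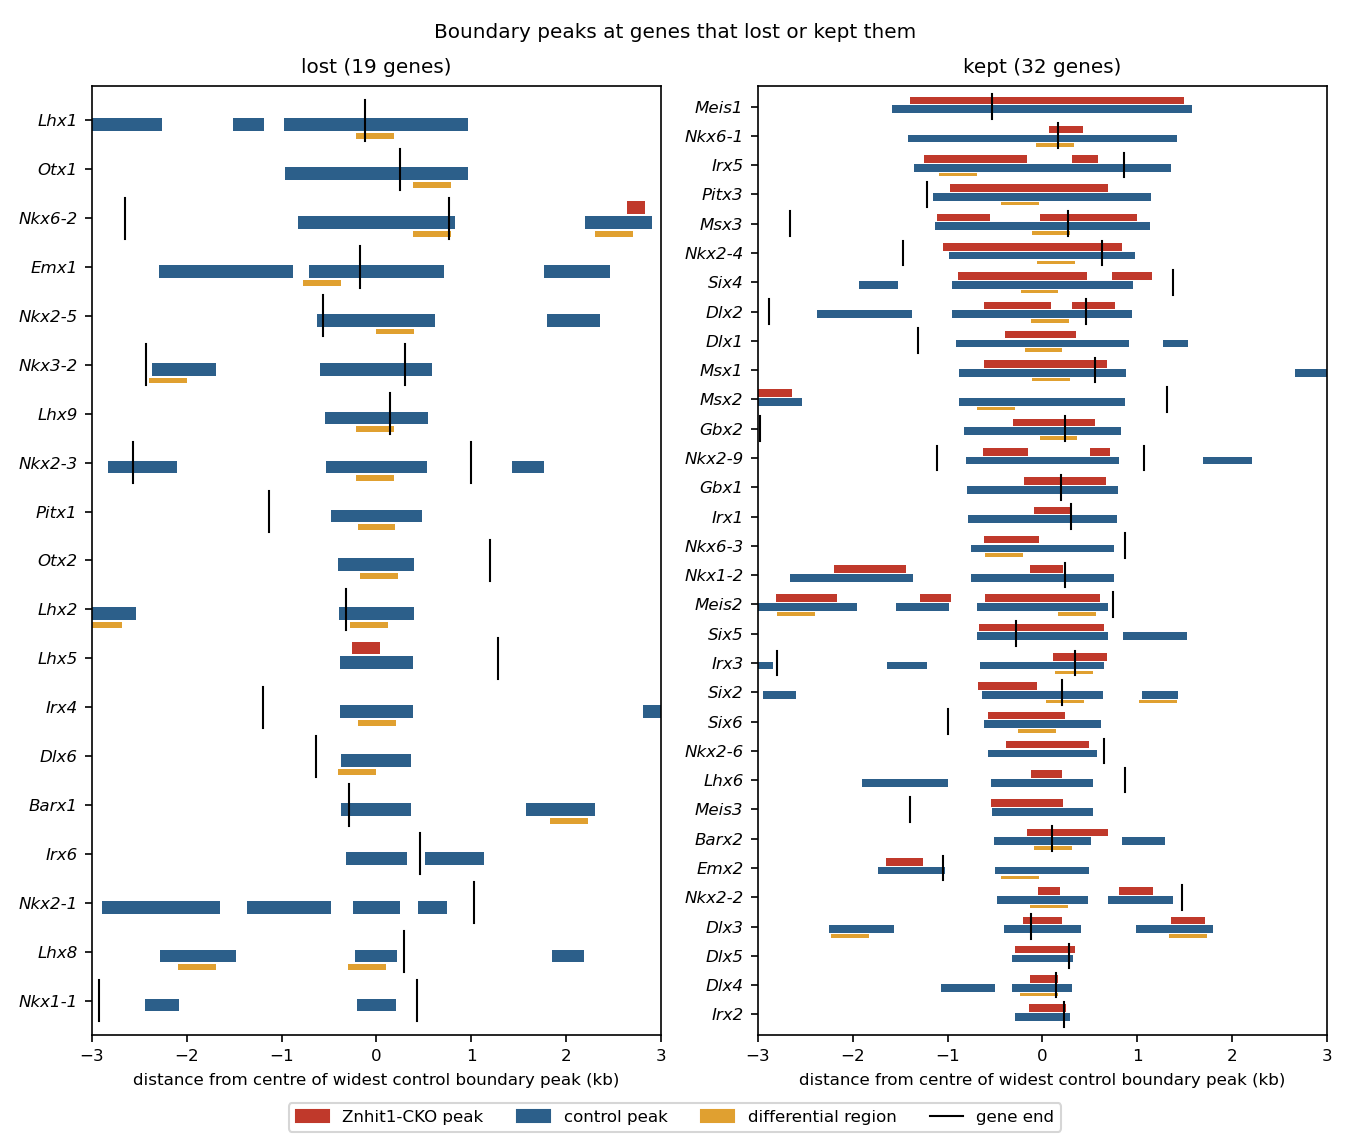
Map of peaks around the widest control boundary peak of each gene, for the 19 genes that lost and 32 of the 35 that kept a boundary peak, ordered by the width of that peak. The horizontal axis is the distance in kb from the centre of the peak along the plus strand. Red bars are Znhit1-CKO peaks, blue bars control peaks, orange bars differential regions, and black lines gene ends. Among lost genes a Znhit1-CKO peak lies over the widest control peak at Lhx5 alone, and among kept genes most red bars are shorter than the blue bar below them.

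The Lhx genes encode factors with paired LIM domains beside the homeodomain. Of the 6 Lhx genes with a boundary peak in control, 5 had lost it and Lhx6 had not, the highest share of any family with more than 2 such genes. Lhx1, which acts in head and kidney formation and responds to GDNF in cultured mouse spermatogonia, had no Znhit1-CKO boundary peak, against a control peak of 1945 bp (chr11:84524686-84526630) across its start. Lhx9, which is needed for the gonad to form, had none either, against 1081 bp in control. For Lhx2, which acts in forebrain, eye and hair follicle, the widest control boundary peak lost was 795 bp, and for Lhx8, an oocyte regulator, 446 bp. At Lhx5, a forebrain gene, the control peaks of 276 and 545 bp near one end had no Znhit1-CKO peak over them. Its widest, 775 bp near the other end, was overlapped by a Znhit1-CKO peak that lay farther than 1 kb from the gene end. Each of these 5 lost genes had a differential region at a boundary. Lhx6, a gene of cortical interneurons, kept a peak of 326 bp in Znhit1-CKO, against 1076 bp in control.

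Some starts in this family lie inside the annotated gene, away from its ends. Lhx2 has such a start besides the one at its end, and the widest peaks within 1 kb of a listed start were 600 bp in Znhit1-CKO and 2094 bp in control. Near the listed start of Lhx9, which also lies inside the annotated gene, they were 946 bp in Znhit1-CKO and 882 bp in control. Lhx3, a pituitary and motor neuron gene, had no Znhit1-CKO peak near a listed start and a control peak of 673 bp. With Lhx4, its close relative, 3 of the 8 Lhx genes (Lhx2, Lhx4 and Lhx9) had a Znhit1-CKO peak near an internal start that the gene ends missed.

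Both Otx genes, which specify the anterior head, had lost their boundary peaks. The widest control peaks were 1927 bp at Otx1 and 800 bp at Otx2, each gene had a differential region, and the Znhit1-CKO peak nearest to a gene end was 1243 bp away at Otx1 and 66014 bp away at Otx2. Otx1 also had a control peak of 1669 bp at its other end (chr11:21992641-21994309), and a Znhit1-CKO peak overlapped it farther than 1 kb from the gene. The 2 Emx genes, which pattern the cerebral cortex, differed from each other. Emx1 had no Znhit1-CKO boundary peak, against 2 neighbouring control peaks of 1415 and 1432 bp. Emx2, which is also needed for kidneys and gonads, kept a peak of 388 bp in Znhit1-CKO near its start, where the control peak was 709 bp. Its neighbour of 994 bp in control had no Znhit1-CKO peak over it, and the differential region of the gene lay there.

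All 14 Nkx genes had a control boundary peak, 6 lost it and 8 kept it. The lost ones were Nkx6-2 (1661 bp in control), which acts in the central nervous system, Nkx2-5 (1243 bp), the cardiac regulator, Nkx3-2 (1185 bp), which acts in skeleton and spleen, Nkx2-3 (1062 bp), which acts in spleen and gut, Nkx2-1 (501 bp), which specifies thyroid, lung and ventral forebrain, and Nkx1-1 (412 bp). Nkx2-5 had 2 control boundary peaks, 1 near each end, and neither overlapped a Znhit1-CKO peak. At Nkx2-1 the next Znhit1-CKO peak was 75745 bp from the widest control boundary peak, the farthest of any lost member.

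The kept Nkx genes ranged from nearly full to marginal. Nkx2-4 had a Znhit1-CKO peak of 1894 bp, against 1965 bp in control, and Nkx2-6, a pharyngeal gene, one of 872 bp, against 1153 bp in control. Nkx6-1, a gene of pancreatic beta cells and motor neurons, had the 357 bp over its promoter shown above, against 2834 bp in control. At Nkx2-9, a gene of the ventral neural tube, a control peak of 1616 bp covered most of the gene, and 2 Znhit1-CKO peaks of 476 and 213 bp lay under it. Nkx2-2, which acts in pancreas and ventral neural tube, had a boundary peak of 359 bp in Znhit1-CKO, against 688 bp in control at the same place. Its widest control boundary peak, 966 bp, had a Znhit1-CKO peak of 234 bp over it, farther than 1 kb from the gene end. Nkx1-2 had a widest Znhit1-CKO peak of 760 bp, against a widest control peak of 1504 bp at its other end. Nkx6-3, a stomach gene, was barely kept: its Znhit1-CKO peak of 577 bp lay 909 bp from the gene end.

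The Iroquois genes act in heart, limb and neural patterning. Irx4, a marker of cardiac ventricle, and Irx6 had lost boundary peaks that were at most 766 and 645 bp wide in control. Irx5 had a control peak of 2719 bp across a gene end, over which 2 Znhit1-CKO peaks lay, and only the smaller, 280 bp wide, was within 1 kb of a gene end. Irx1 held 405 bp in Znhit1-CKO, against 1567 bp in control, Irx3 held 563 bp, against 1312 bp, and Irx2 held 397 bp, against 575 bp.

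Of the 6 Dlx genes, which act in forebrain interneurons, jaw and limb, 5 kept a boundary peak. They lie as pairs. In the Dlx5 and Dlx6 pair, separated by 9830 bp, Dlx5 had a peak of 627 bp in Znhit1-CKO, against 642 bp in control, whereas Dlx6 had none in Znhit1-CKO, against 739 bp in control with a differential region. Dlx1 held 753 bp in Znhit1-CKO, against 1827 bp in control. At Dlx2, peaks of 702 and 459 bp in Znhit1-CKO lay under 1 control peak of 1901 bp, and a control peak of 1002 bp near the other end was lost. Dlx3, a gene of skin and placenta, held 416 bp, against 813 bp, and Dlx4 held 298 bp, against 633 bp.

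**Figure D2:**
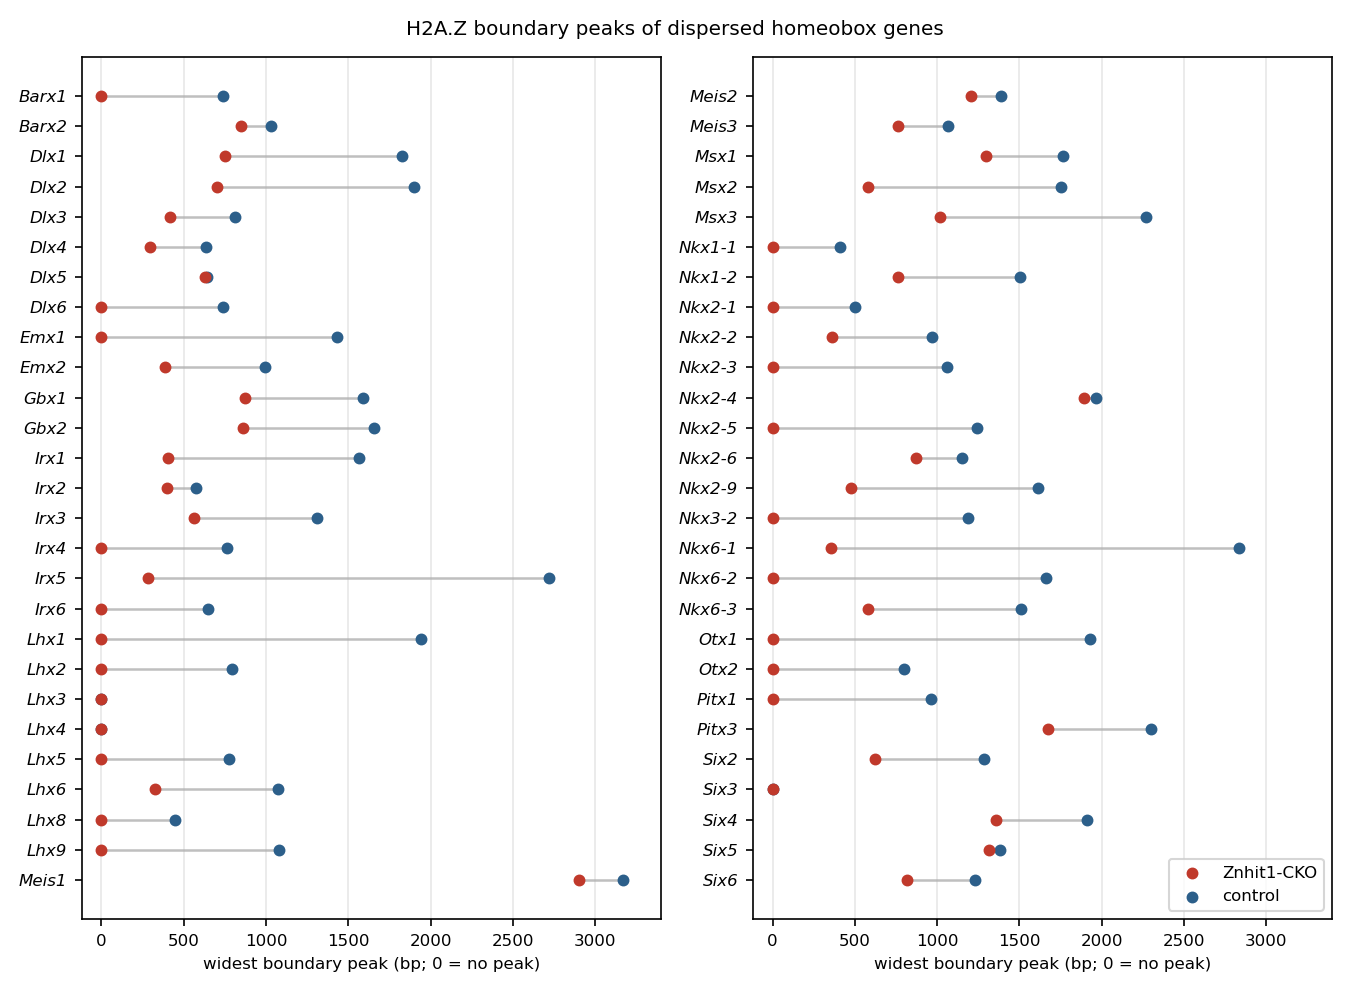
Width in bp of the widest boundary peak of 54 of the 57 genes, in Znhit1-CKO (red) and control (blue) testes, with 0 for no peak. Every gene with a control peak has its red point to the left of the blue one, and for Lhx3, Lhx4 and Six3 both points are at 0.

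Six2, Six4, Six5 and Six6 all had a boundary peak in control, and none lost it. Six5, which lies next to Dmpk and shares its boundary peak with that gene, a kinase gene, had 1316 bp in Znhit1-CKO, against 1385 bp in control. Six4 shares its peak with Mnat1 and had 1360 bp in Znhit1-CKO, against 1909 bp in control. Six2, which maintains nephron progenitors, had 624 bp in Znhit1-CKO, against 1282 bp in control, and its listed start lay in a control peak and a differential region but in no Znhit1-CKO peak. Six6, an eye gene, had 819 bp in Znhit1-CKO, against 1230 bp in control, near its far end. Near its listed start the peaks were 268 bp in Znhit1-CKO and 958 bp in control.

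Msx, Gbx and Meis genes also kept a boundary peak throughout, 8 of 8 genes. Msx1 and Msx2 act in teeth, palate and skull, and in the mouse fetal ovary they take part in the entry of germ cells into meiosis. Msx1 had 1296 bp in Znhit1-CKO, against 1763 bp in control. At Msx2 the start held 582 bp in Znhit1-CKO, against 839 bp in control, while a control peak of 1755 bp near the far end had no Znhit1-CKO peak over it. Msx3 had 1017 bp, against 2271 bp. Gbx2, which positions the boundary of midbrain and hindbrain, had 862 bp, against 1657 bp, and Gbx1 873 bp, against 1591 bp.

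The Meis genes encode partners of Hox and Pbx proteins and are expressed broadly. Their widest peaks were 2901, 1208 and 760 bp in Znhit1-CKO at Meis1, Meis2 and Meis3, against 3167, 1390 and 1068 bp in control. Meis3 was the only kept member with more bases covered in Znhit1-CKO within 1 kb of its ends, 153 bp against 143 bp in control, although its peak was narrower.

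Among the remaining genes, Barx1, a stomach gene, had lost 2 control peaks of 737 and 734 bp, and Barx2 kept 848 bp in Znhit1-CKO, against 1028 bp in control. Pitx1, the hindlimb regulator, had lost 3 control peaks of up to 961 bp. Pitx3, a gene of dopaminergic neurons and lens, had 1672 bp in Znhit1-CKO, against 2301 bp in control, and this peak also lies at an end of Elovl3. At the start of Pitx3 the peaks were 1497 bp in Znhit1-CKO and 1955 bp in control.

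Kept boundary peaks were narrower. The bases covered by peaks within 1 kb of the gene ends were fewer in Znhit1-CKO at 34 of the 35 kept members (97.1%, against 83.2% of all kept genes). The median log2 ratio of covered bases, Znhit1-CKO over control, was -1.03 for the 35 members and -0.22 for all 13104 kept genes. A log2 ratio of -1 or below was found at 18 of the 35 members (51.4%, 34.0 to 68.6%, against 9.09% of all kept genes). It was lowest at Nkx6-3 (-3.61), Dlx1 (-2.83), Nkx6-1 (-2.71), Irx5 (-2.57) and Nkx1-2 (-2.37), and highest at Meis3 (0.10), Dlx5 (-0.03), Nkx2-4 (-0.06), Six5 (-0.07) and Meis1 (-0.10). Together, 37 of 54 members either had no boundary peak left or had a log2 ratio of -1 or below (68.5%, against 19.6% of the 14815 genes). By family, the median of kept genes was lowest for Irx (-1.94, 4 genes) and Nkx (-1.74, 8 genes), and highest for Meis (-0.10, 3 genes).

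The low ratio of Dlx1 rests on the window, which held 85 bp of its Znhit1-CKO peak of 753 bp, and that of Nkx6-3 on 92 bp of 577 bp. Those of Irx5 and Nkx1-2 also depend on it. At Irx5 the window held 280 bp, while Znhit1-CKO peaks covered 1374 bp of the control peak of 2719 bp. At Nkx1-2 it held 390 bp of Znhit1-CKO peaks of 760 and 345 bp, and 2015 bp of control peaks of 1306 and 1504 bp. Taken over the widest boundary peak of each list in place of covered bases, the median was -0.98 for the members and -0.26 for all kept genes. A control peak broken into 2 or more Znhit1-CKO peaks had about the background share, with 6 of 54 members (11.1%, against 9.85% of the 14815 genes).

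**Figure D3:**
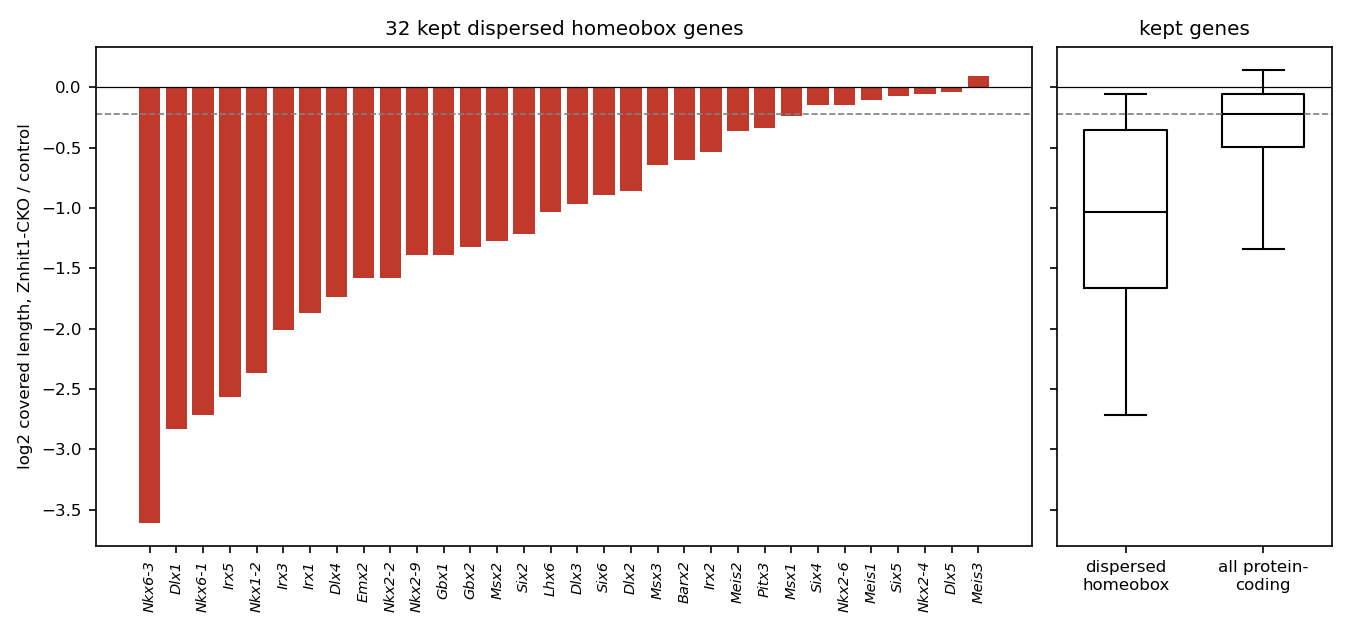
Log2 ratio of bases covered by boundary peaks, Znhit1-CKO over control. Left, 1 bar for each of 32 of the 35 kept genes. Right, boxes of the 35 kept dispersed homeobox genes and of all 13104 kept protein-coding genes (line, median; box, quartiles; whiskers, 5th to 95th percentile). The dashed line is the median of all kept genes, -0.22, and 25 of the bars reach below it.

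Width of the control peak goes with loss over the whole genome, so members were also read within classes of width. Their widest control boundary peaks had a median of 1237 bp, against 1429 bp for all genes with one. Of members with a control peak of 1000 bp to under 2000 bp, 8 of 29 had lost it (27.6%, 12.7 to 47.2%), against 4.02% of all genes in that class. Of those of 500 bp to under 1000 bp, 9 of 17 had (52.9%, 27.8 to 77.0%), against 35.2%. Both members under 500 bp had lost it, against 76.7% of all genes in that class, and none of the 6 at 2000 bp or more had, against 1.73%. A log2 ratio of -1 or below was found at 4 of 8, 11 of 21 and 3 of 6 kept members in the 3 wider classes, against 19.1%, 7.92% and 7.29% of all kept genes. No kept member had a control peak under 500 bp, a class in which 7.75% of all kept genes had such a ratio. The classes hold few members, and no test was made.

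**Figure D4:**
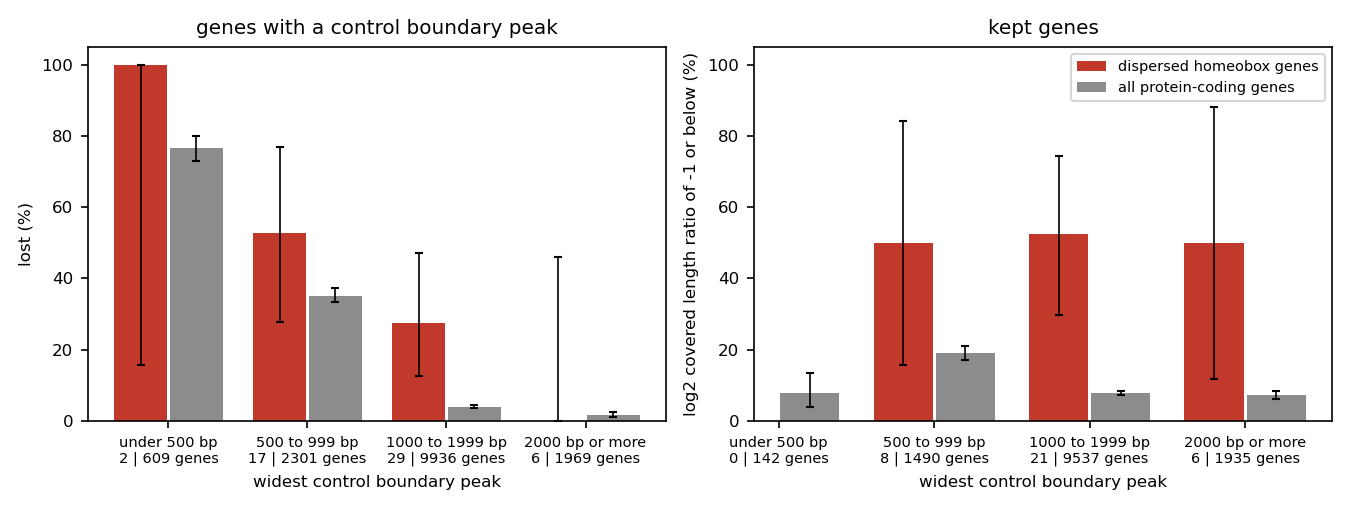
Shares by width of the widest control boundary peak, with exact 95% intervals. Left, percent of genes that lost their boundary peak. Right, percent of kept genes with a log2 covered length ratio of -1 or below. Red bars are dispersed homeobox genes and grey bars all protein-coding genes, with both numbers of genes under each class. In the class from 1000 bp the red bars stand at 27.6% and 52.4% and the grey ones at 4.02% and 7.92%.

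The authors' differential regions, almost all 400 bp wide and without a sign or fold, lay at members about as often as elsewhere. A region lay within 1 kb of an end of 37 of the 54 members with a control boundary peak (68.5%, 54.4 to 80.5%, against 62.8% of all such genes). It did so at 21 of 35 kept members (60.0%, against 63.4% of all kept genes) and at 16 of 19 lost members (84.2%, 60.4 to 96.6%, against 58.6% of all lost genes). The lost members without one were Irx6, Nkx1-1 and Nkx2-1, whose control peaks were 645 bp wide or less. At the start end of the gene alone the share was 51.4% of 37 members, against 61.9% of all genes. What lay under the regions differed more. Of 41 differential regions at member boundaries, 26 lay over a control peak and no Znhit1-CKO peak (63.4%, against 16.1% of all boundary regions), and 15 over peaks of both lists (36.6%, against 83.6%). These shares are not separate from the loss of peaks. Of member control boundary peaks, 46.7% had a Znhit1-CKO peak over them, against 82.0% of all control boundary peaks.

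A listed start gave the direction of transcription for 40 of the 57 genes. At the start end, 37 of the 40 had a control peak (92.5%, against 65.0% of all genes with a strand) and 14 of the 37 had no Znhit1-CKO peak there (37.8%, against 10.8%). At the far end, 19 of the 40 had a control peak (47.5%, against 10.7%) and 13 of those 19 had no Znhit1-CKO peak there (68.4%, against 42.6%). All 19 had a control peak at the start end too, as did 1466 of all 1863 genes with one at the far end. A far-end peak was kept at 6 genes: Meis2, Nkx1-2, Nkx2-4, Nkx2-9, Pitx3 and Six6. In short genes 1 peak can count at both ends. Nkx2-4, 2103 bp long, had a single boundary peak in each list, counted at both ends. At Nkx2-9, 2181 bp long, the control peak of 1616 bp lay within 1 kb of both ends. Members are short genes, with a median annotated length of 5900 bp, against 17146 bp for all protein-coding genes, and the part of length in the far-end peaks was not tested. The share lost was 33.3% of 21 members under 5 kb, against 20.3% of all genes of that length, and 36.4% of 33 longer members, against 10.1%.

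At the listed starts themselves, 32 of 40 members had theirs inside a control peak (80.0%, against 61.8% of all listed starts). Of those 32, 16 were outside every Znhit1-CKO peak (16.7% over all genes). They included starts of genes counted as kept. At Emx2, Lhx6, Nkx1-2, Nkx2-9, Six2 and Six6 a remaining Znhit1-CKO boundary peak lay beside the start. At Irx2, whose listed start lies inside the annotated gene, the boundary peak lay at the gene end. Another Znhit1-CKO peak, 389 bp wide, lay within 1 kb of that start.

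Whole loci showed the same direction. Within the gene and 10 kb on either side, every member had at least 1 control peak (100%, against 79.5% of all genes), and 30 of 57 had 4 or more (52.6%, against 16.6%). Peaks there covered a median of 774 bp per member in Znhit1-CKO and 3019 bp in control, and 1602 bp and 2302 bp over all genes with a control peak there. The median ratio per locus was 0.299 for members and 0.724 for all genes. A differential region lay in 50 of the 57 loci (87.7%, against 78.7%). At 13 members the locus held no Znhit1-CKO peak at all (22.8%, 12.7 to 35.8%, against 8.76%): Barx1, Dlx6, Emx1, Irx4, Irx6, Lhx3, Lhx8, Nkx1-1, Nkx2-1, Nkx2-3, Otx2, Pitx1 and Six3. At Six3, a forebrain and eye gene, the control locus held a single peak of 210 bp. Nkx2-1 had 6 control peaks covering 3673 bp, Nkx2-3 also 6 covering 3359 bp, and Emx1 4 covering 4163 bp. At the other extreme, Meis1 held 8457 bp in Znhit1-CKO, against 10487 bp in control.

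From the widest control boundary peak of each lost member, the nearest Znhit1-CKO peak was a median of 17164 bp away. It overlapped that peak at Lhx5, lay within 10 kb at 6 of the 19 members with Lhx5 included, and was over 20 kb away at 9. Distances were computed for members only, so whether lost members lay unusually far from a Znhit1-CKO peak was not tested. Counting every control boundary peak, a Znhit1-CKO peak overlapped one at 2 of the 19, Lhx5 and Otx1, and none at the other 17. Those 17 were 31.5% of the 54 members with a control boundary peak, a larger share than among all genes with one. Near the 1 kb limit, the Znhit1-CKO peaks of Nkx6-3 and Dlx1 were 909 and 916 bp from a gene end and counted as kept, while those of Lhx5 and Otx1 were 1238 and 1243 bp away and counted as lost. Among control peaks, that of Meis3 was just inside, at 858 bp, and that of Lhx3 just outside, at 1310 bp.

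In all, 9 pairs of members lie within 100 kb of each other, and no 2 members shared a boundary peak. In 2 of the 9 pairs 1 gene was lost and the other kept: Dlx6 and Dlx5, and Nkx2-1 and Nkx2-9, which are 74480 bp apart. Six3 had no boundary peak while Six2, 36544 bp away, kept one. Both genes were kept in the other 6 pairs, which include Dlx1 and Dlx2, Dlx3 and Dlx4, and Nkx2-4 and Nkx2-2. Boundary peaks of 28 members also lay within 1 kb of an end of another annotated gene. It was a protein-coding gene in 4 cases (Gbx2, Pitx3, Six4 and Six5, all kept) and otherwise mostly a non-coding RNA gene such as Lhx1os or Dlx6os2. Such sharing was counted for members only, so whether it was unusual was not tested. Leaving out all such shared peaks from both lists, 13 of 35 members had no Znhit1-CKO boundary peak (37.1%, against 16.2% of all genes). By this rule a gene whose Znhit1-CKO boundary peaks are all shared counts as lost, as Gbx2 does. Both shares include such genes.

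The choice of genes did not use promoter CpG content. Its median was higher in kept and in lost members than over all promoters, but lost members were widely spread. The ratio of observed to expected CG dinucleotides had a median of 0.748 over 40 members and 0.577 over 17492 protein-coding genes. In the 23 kept members it was 0.748 (0.535 to 1.18), against 0.765 in all kept genes. In the 14 lost members it was 0.794 (0.241 to 0.972), against 0.416 in all lost genes. The quartiles were 0.489 and 0.898 in lost members, against 0.641 and 0.830 in kept ones. Barx1, Lhx1, Nkx6-2 and Emx1 all exceeded 0.90, whereas Lhx8 (0.241) and Lhx9 (0.261) were the lowest of the members. The lost members Otx2 (0.463), Nkx2-5 (0.466), Nkx2-3 (0.559) and Nkx2-1 (0.559) were also below 0.577. So were the kept members Pitx3 (0.535), Six5 (0.559) and Nkx2-9 (0.571). Lhx3, Lhx4 and Six3, with no boundary peak, had 0.466, 0.613 and 0.747, against a median of 0.164 for all genes without one. The Lhx4 start used here nevertheless lay inside a control peak, as did 7.22% of the starts of all such genes. A CG occurs in 94.8% of all promoters of this length, and in each of the 40.

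**Figure D5:**
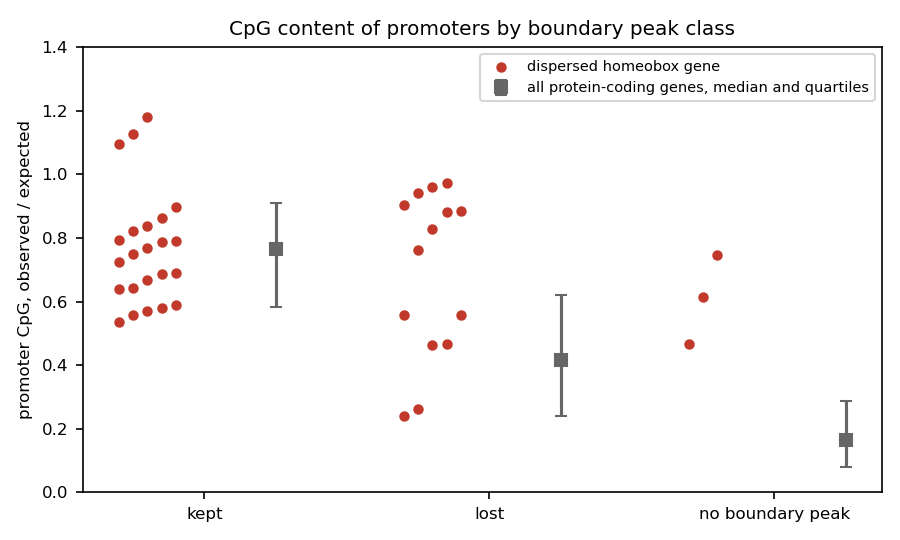
Ratio of observed to expected CG dinucleotides in the 300 promoter bases, by whether the gene kept or lost its boundary peak or had none. Red points are the 40 dispersed homeobox genes with a listed start and grey squares the medians of all protein-coding genes with quartiles. Lost members have a median of 0.794, against 0.416 for all lost genes.

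Genes related to the members by function were read from lists. Of 50 other homeobox genes outside the Hox clusters (51 were listed and Drgx was not matched), 42 had a boundary peak in control, of which 15 were lost (35.7%, against 11.5% of all genes), and kept ones had a median log2 ratio of -1.17. The widest lost peaks among them were at Hmx1 (1436 bp), Hmx3 (1373 bp), Onecut2 (1318 bp) and Mnx1 (1272 bp), and Vax2 (-3.49) and Tlx2 (-2.75) had the lowest ratios. TALE-class homeobox genes listed beside Meis (the Pbx, Pknox and Tgif genes and Mkx) all kept their peaks, 9 of 9, with a median ratio of -0.28. That list leaves out the Irx genes, members that are also of the TALE class, of which 2 of 6 lost theirs. LIM domain partners and relatives of Lhx had lost 2 of 10, Isl2 (1965 bp) and Ldb2 (1268 bp). Among the Eya, Dach and Tle genes, whose products partner those of Six2 and its relatives, 2 of 10 had lost theirs, Eya4 (1651 bp) and Eya2 (546 bp). Genes of Polycomb complexes had lost 1 of 30, Rbbp7 (867 bp), with a median ratio of -0.23.

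Cell type markers show only where peaks lay, not expression. Boundary peaks were present in control at 10 of 10 germ cell markers, 7 of 10 Sertoli, 3 of 7 Leydig, 3 of 3 peritubular, 1 of 3 endothelial and 1 of 3 macrophage markers. They were lost in Znhit1-CKO at 4 of the 10 germ cell markers (Sycp1, Sycp3, Spo11 and Stra8), 2 of 7 Sertoli, 1 of 3 Leydig, 1 of 3 peritubular, 0 of 1 endothelial and 1 of 1 macrophage markers. Among genes at large, 67.6% carried such a peak in control. The shares lost were 40.0% of germ cell, 28.6% of Sertoli, 33.3% of Leydig and 33.3% of peritubular markers with a control peak. For comparison, the share lost was 35.2% in dispersed homeobox genes and 11.5% in genes at large. Each marker share rests on at most 10 genes. The part of cell composition in the losses at homeobox genes was not tested.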

How the data were processed

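The authors deposited 3 lists of regions made from the 8 libraries, each with chromosome, start and end coordinates and no other value: 31156 Znhit1-CKO peaks, 48752 control peaks and 24367 differential regions. Per the submitters' processing notes, mm10 was the build, MACS2 2.2.4 and Picard 2.20.7 were used, and SAMtools 1.9, BWA 0.7.17 and cutadapt 2.5 are also named. The labels' protocol states over 30000000 reads per sample. No source used here gives the peak thresholds, whether replicates were pooled or the direction of the differential regions.

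Gene ends and promoters came from RefSeq (GRCm38.p6), and 40 of 57 members had a listed promoter; the most upstream was used where there were several. Intervals were exact (Clopper-Pearson). Counts were checked against bedtools 2.31.1, with 0 of 21900 genes differing, and the classification was tested on constructed examples. Work was done in Python 3.11.15 with pandas 2.3.3, numpy 2.4.6, matplotlib 3.10.9 and scipy 1.17.1. Genes given by rule were all lost members, kept members with the widest control peaks or the extreme ratios, and neighbouring members; most other members were described by family. The members and lists were chosen with earlier results of these data known. Alternatives were other windows, peak widths, overlap rules and gene ends. Those using any listed start, or leaving out peaks shared with other genes, were added after the data were seen. Values of 3 single members are not reported here, though counts and medians over the members include them.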

Additional observations from a re-analysis of the deposited data

How the results depend on the processing

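No paired analysis was possible because the replicates of a genotype share 1 peak list, which also left no replicate to leave out. Over 5 results and 26 alternatives, 22 stayed within 1.5 times the count reported or within the binomial interval of the median. No median changed sign. The rule for counts compared numbers of members only, so it could not show a change of direction against all genes. The 19 lost members became 33 of 54 (61.1%, against 23.4% of all genes) where a Znhit1-CKO peak had to share 50% of both peaks with the control peak. Under the other alternatives the number lost lay between 13 and 28, and its share exceeded that of all genes in each. Members with a differential region were 19 of 37 at the start end alone, for which fewer genes have a strand (51.4%, against 61.9%), and 26 of 52 with a window of 500 bp, against 59.3% of all genes, so this share was not above the background in every setting. The 6 control peaks split into 2 or more became 2 with Znhit1-CKO peaks of at least 500 bp only and 3 where peaks less than 500 bp apart were joined. The median log2 ratio ranged from -1.35 to -0.73. No list gives the depth or a score of a peak, so weak and strong peaks count alike.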

Other observations

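The sequence TAATTA, the core bound by many homeodomains, which reads the same on both strands, was present in 3 of 40 member promoters (7.50%, against 4.69% of all promoters of the same length). The promoters were those of Emx2, Msx2 and Otx2. A match is a description of these 300 bases and not a binding site.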
